A study of Mus musculus with 14 samples.

Results

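The circadian clock genes Arntl, Npas2, Per1, Per2, Per3, Nr1d1 and Nr1d2 and the genes of the PAR bZIP transcription factors Dbp, Tef and Hlf were followed through 14 libraries of mouse left ventricle. They were taken by gene symbol, all 10 were found among the 49315 genes of the count table, and all 10 passed the filter on low counts that left 15292 genes for testing. WT mice and HCN4F knock-in mice, which carry a tyrosine-to-phenylalanine exchange in the C-linker of the pacemaker channel HCN4 in every cell, underwent Sham surgery or transverse aortic constriction (TAC), a narrowing of the aorta that loads the left ventricle with pressure. Surgery was done at 10 to 12 weeks of age and tissue was taken 5 weeks later. There were 4 WT-Sham, 2 WT-TAC, 4 HCN4F-Sham and 4 HCN4F-TAC libraries (replicates 2 and 3 for WT-TAC), each from polyA-selected RNA of whole left ventricle. The study's methods describe 4 biological replicates in every group, WT-TAC included. The mice lived in a light/dark cycle, but neither the labels nor the study's methods give the time of day at which hearts were collected.

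The clock of a heart cell is a loop of transcription factors. ARNTL (also called BMAL1) pairs with CLOCK or with its relative NPAS2 and switches on the Per, Nr1d, Dbp, Tef and Hlf genes through E-boxes. The PER proteins hold this pair back, and NR1D1 and NR1D2 (REV-ERB alpha and beta) silence Arntl, Npas2 and Clock through ROR elements. DBP, TEF and HLF bind D-boxes and carry the rhythm to further genes, including Per genes. In nocturnal mice the transcripts therefore peak in a known order through the day: Arntl and Npas2 around the change from dark to light, Nr1d1 in the light phase, Dbp after it, and Per3, Per1 and Per2 later, towards the change from light to dark. A set of levels from 1 heart can thus be placed along this order, and the 10 genes were read here as 2 arms, the positive arm of Arntl and Npas2 against the other 8.

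Promoter sequence was available for 9 of the 10 genes, all but Per2, as 12 windows of 250 bases before a RefSeq transcript start (assembly GRCm38.p6). The 3 windows shown belong to genes of the Per, Nr1d and PAR bZIP arm, contain 1 of the letter runs through which the loop is known to work, and overlap no GENCODE exon. Capitals mark the match: in Per3 a pair of D-boxes, 205 and 158 bases before the start, in Nr1d1 an E-prime-box, 28 bases before it and read on the opposite strand, and in Tef an E-box, 138 bases before the start of its shorter transcript. The Per3 window is chr4:151044666-151044915 on the minus strand, the Nr1d1 window chr11:98775378-98775627 on the minus strand and the Tef window chr15:81811164-81811413 on the plus strand, each printed in the direction of its gene.
Per3: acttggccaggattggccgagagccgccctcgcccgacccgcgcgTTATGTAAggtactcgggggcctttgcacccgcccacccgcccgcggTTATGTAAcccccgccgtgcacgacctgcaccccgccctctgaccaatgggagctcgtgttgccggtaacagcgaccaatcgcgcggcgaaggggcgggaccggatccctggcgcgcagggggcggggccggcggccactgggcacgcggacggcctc
Nr1d1: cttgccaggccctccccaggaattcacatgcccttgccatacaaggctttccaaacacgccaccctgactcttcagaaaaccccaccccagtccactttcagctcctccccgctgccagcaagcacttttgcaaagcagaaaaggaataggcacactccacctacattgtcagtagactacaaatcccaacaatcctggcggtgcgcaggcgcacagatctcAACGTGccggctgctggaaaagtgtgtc
Tef: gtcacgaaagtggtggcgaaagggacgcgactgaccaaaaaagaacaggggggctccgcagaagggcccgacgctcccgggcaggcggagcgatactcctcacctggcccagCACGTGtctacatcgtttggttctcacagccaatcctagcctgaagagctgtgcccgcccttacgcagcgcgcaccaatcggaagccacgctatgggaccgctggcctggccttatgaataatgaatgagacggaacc

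Both strands of every window were searched for the E-box CACGTG, the E-prime-box CACGTT, the D-boxes TTATGTAA and TTACGTAA, and the ROR elements ANTAGGTCA and TNTAGGTCA, none of which overlapped another. An E-box stood in 3 of the 12 windows (1 of Per1, 166 bases before the start, and both of Tef), against 6.02% of 32851 promoter windows of the same length. The E-prime-box was found in 1 of the 12 windows against 3.85%, the D-box in 1 against 0.931% and the ROR element in 0 against 1.21%. Arntl, Npas2, Nr1d2, Dbp and Hlf held none of these letters in their windows. Elements beyond the windows, across their ends or with other letters were not searched for.

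The genes lie on several chromosomes of GRCm38 (GENCODE M21): Arntl at 113207465 to 113314126 of chromosome 7, Npas2 at 39193731 to 39363236 of chromosome 1, Nr1d1 at 98767932 to 98775333 of chromosome 11 and Dbp at 45705088 to 45710203 of chromosome 7. Levels are given as CPM, the count of a gene scaled to a library of common size with TMM factors. The libraries held 22309914 to 35210939 counts, and the members had 32 to 5915 counts each in a library. A count of 0 would allow up to 3 counts (0.0859 to 0.137 CPM), a limit that covers counting error and not the difference between animals. Mitochondrial genes took 13.9% to 23.1% of counts. The summed CPM of 9 ventricular cardiomyocyte markers was 55945 to 76223, against 36.2 to 81.3 for 7 atrial markers. Since whole tissue was sequenced, fewer cells of a type and less RNA per cell cannot be told apart.

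Library HCN4F-Sham 1 stood apart from HCN4F-Sham 2, 3 and 4 in most of these genes, and the members' comparisons that use the HCN4F-Sham group are also given without it. Fold changes of other genes are given with all libraries alone. Per kilobase of exon and as a mean over the 14 libraries, Nr1d1 had the highest level of the members (41.6 CPM per kb). It was followed by Dbp (17.8), Per1 (11.9), Tef (11.5), Nr1d2 (10.6), Hlf (2.75), Per2 (2.43), Arntl (1.37), Per3 (1.10) and Npas2 (0.712). The order varied with the group: the mean of Dbp per kilobase was 30.3 CPM per kb in HCN4F-Sham, 17.6 in HCN4F-TAC and 13.4 in WT-TAC, but 7.81 in WT-Sham, where Tef (8.99), Per1 (8.93) and Nr1d2 (8.09) had higher means. Dbp had the widest range, with 14.4 times more CPM in its highest library than in its lowest, and Arntl the next with 11.6 times. Per1 had the narrowest, 2.54 times.

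The positive arm was low in 3 of the 4 HCN4F-Sham hearts. Arntl, the obligate partner of the activating pair, was at 13.6, 15.2, 15.6 and 12.8 CPM in WT-Sham and at 10.9 and 11.5 CPM in WT-TAC (replicates in numerical order here and below). It was at 14.9, 5.11, 1.77 and 1.54 CPM in HCN4F-Sham and at 4.64, 11.4, 7.38 and 17.9 CPM in HCN4F-TAC. HCN4F-Sham 1 thus lay among the WT-Sham libraries, while HCN4F-Sham 3 and 4 were lower than any other library, and the HCN4F-TAC hearts spread from below to above all WT hearts. Npas2, which can stand in for Clock in the pair, was at 4.25, 5.91, 3.94 and 4.38 CPM in WT-Sham and at 3.04 and 2.60 CPM in WT-TAC. In HCN4F-Sham it was at 5.87, 1.92, 1.16 and 1.39 CPM, and in HCN4F-TAC at 1.99, 3.39, 2.05 and 5.86 CPM. The same libraries, HCN4F-Sham 1 and HCN4F-TAC 4, were the high ones of their groups in both genes.

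**Figure D1:**
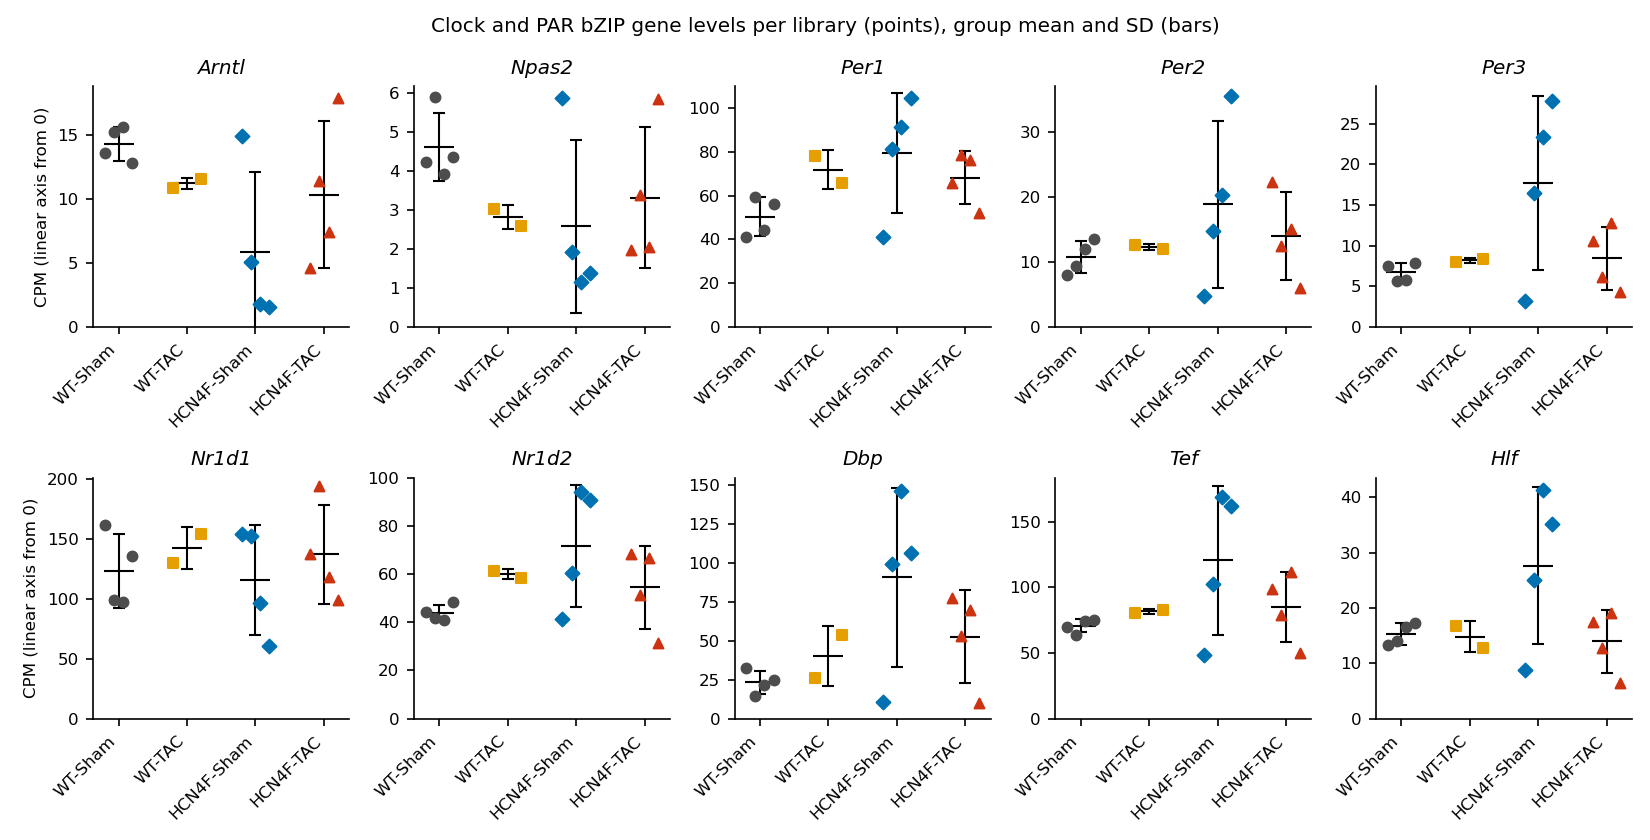
CPM of the 10 members (linear axes from 0) in each library of the 4 groups, with points for libraries from left to right in replicate order and bars for the group mean and SD. In the HCN4F-Sham group Arntl spans 1.54 to 14.9 CPM and Dbp 10.5 to 147 CPM, and the lower Arntl error bar of that group ends below 0 and is cut by the axis.

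The Per genes, whose proteins close the negative limb, ran the other way. Per1, which light and stress signals can also induce, was at 41.3, 59.5, 44.3 and 56.2 CPM in WT-Sham, at 78.1 and 65.6 CPM in WT-TAC, at 41.0, 81.1, 91.2 and 104 CPM in HCN4F-Sham and at 65.9, 78.5, 76.3 and 52.0 CPM in HCN4F-TAC. Per2, the latest of the order to peak, was at 8.09, 9.36, 12.04 and 13.6 CPM in WT-Sham, at 12.7 and 11.96 CPM in WT-TAC, at 4.82, 14.8, 20.4 and 35.6 CPM in HCN4F-Sham and at 22.4, 12.5, 15.1 and 6.02 CPM in HCN4F-TAC. Its lowest library was again HCN4F-Sham 1 and its highest HCN4F-Sham 4. Per3, dispensable for the loop itself, was at 7.54, 5.69, 5.81 and 7.94 CPM in WT-Sham, at 8.01 and 8.42 CPM in WT-TAC, at 3.24, 16.4, 23.3 and 27.7 CPM in HCN4F-Sham and at 10.5, 6.16, 12.8 and 4.27 CPM in HCN4F-TAC. In all 3 genes HCN4F-Sham 2, 3 and 4 exceeded every WT library, and HCN4F-Sham 1 lay below every WT library.

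Of the Nr1d pair, which represses the positive arm, only Nr1d2 followed the Per genes. Nr1d2 was at 44.4, 41.6, 40.8 and 48.2 CPM in WT-Sham, at 61.4 and 58.5 CPM in WT-TAC, at 41.3, 60.4, 94.1 and 90.7 CPM in HCN4F-Sham and at 68.3, 51.3, 66.8 and 31.6 CPM in HCN4F-TAC. Nr1d1 was at 162, 99.4, 97.7 and 136 CPM in WT-Sham, at 130 and 155 CPM in WT-TAC, at 154, 152, 96.4 and 60.5 CPM in HCN4F-Sham and at 138, 195, 118 and 98.9 CPM in HCN4F-TAC. Its lowest library was HCN4F-Sham 4, which had the highest Per1, Per2 and Per3, and its highest was HCN4F-TAC 2, whose other members gave it a place in the middle of the series.

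Among the PAR bZIP genes, direct outputs of the loop, Dbp differed most between libraries. It was at 32.5, 14.3, 21.8 and 24.9 CPM in WT-Sham, at 26.3 and 53.6 CPM in WT-TAC, at 10.5, 99.3, 147 and 107 CPM in HCN4F-Sham and at 77.4, 53.2, 70.1 and 10.2 CPM in HCN4F-TAC. The library with the most Dbp, HCN4F-Sham 3, had 82.7 times more Dbp than Arntl by CPM, and the library with the least, HCN4F-TAC 4, had a ratio of 0.570. Tef was at 69.7, 63.9, 74.4 and 74.8 CPM in WT-Sham, at 80.5 and 83.0 CPM in WT-TAC, at 48.5, 103, 169 and 162 CPM in HCN4F-Sham and at 98.7, 79.3, 111 and 50.4 CPM in HCN4F-TAC. Hlf was at 13.2, 13.97, 16.6 and 17.3 CPM in WT-Sham, at 16.8 and 12.8 CPM in WT-TAC, at 8.85, 25.1, 41.4 and 35.3 CPM in HCN4F-Sham and at 17.5, 12.8, 19.1 and 6.51 CPM in HCN4F-TAC. HCN4F-Sham 1 and HCN4F-TAC 4 were the lowest libraries of the series for all 3 PAR bZIP genes, and HCN4F-Sham 3 the highest.

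To set the arms against each other in each heart, an arm score was taken as the mean log2 CPM of Arntl and Npas2 minus the mean log2 CPM of the other 8 members. It was -1.81 ± 0.30 in WT-Sham (SD, n = 4, -2.11 to -1.41) and -2.66 ± 0.10 in WT-TAC (n = 2). In HCN4F-Sham it was -3.98 ± 2.08 (n = 4, -5.48 to -1.04), and in HCN4F-TAC -2.70 ± 1.35 (n = 4, -3.88 to -0.85). With all libraries the order of the group means of WT-TAC, HCN4F-TAC and HCN4F-Sham was not resolved, and of the pairs of groups only WT-Sham and WT-TAC did not overlap. The place of HCN4F-Sham rested on HCN4F-Sham 1. Without that library, a choice made after seeing the data, the score of HCN4F-Sham was -4.96 ± 0.84 (n = 3, -5.48 to -3.99), and these 3 libraries lay below every other library of the series, of which HCN4F-TAC 1 was the lowest (-3.88). HCN4F-TAC overlapped WT-Sham and WT-TAC either way. The scores placed HCN4F-TAC 4 and HCN4F-Sham 1 at the end with high Arntl and low Dbp, next to the 4 WT-Sham hearts. The opposite end, with low Arntl and high Dbp and Per, was held by HCN4F-Sham 2, 4 and 3, preceded by HCN4F-TAC 3 and 1.

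**Figure D2:**
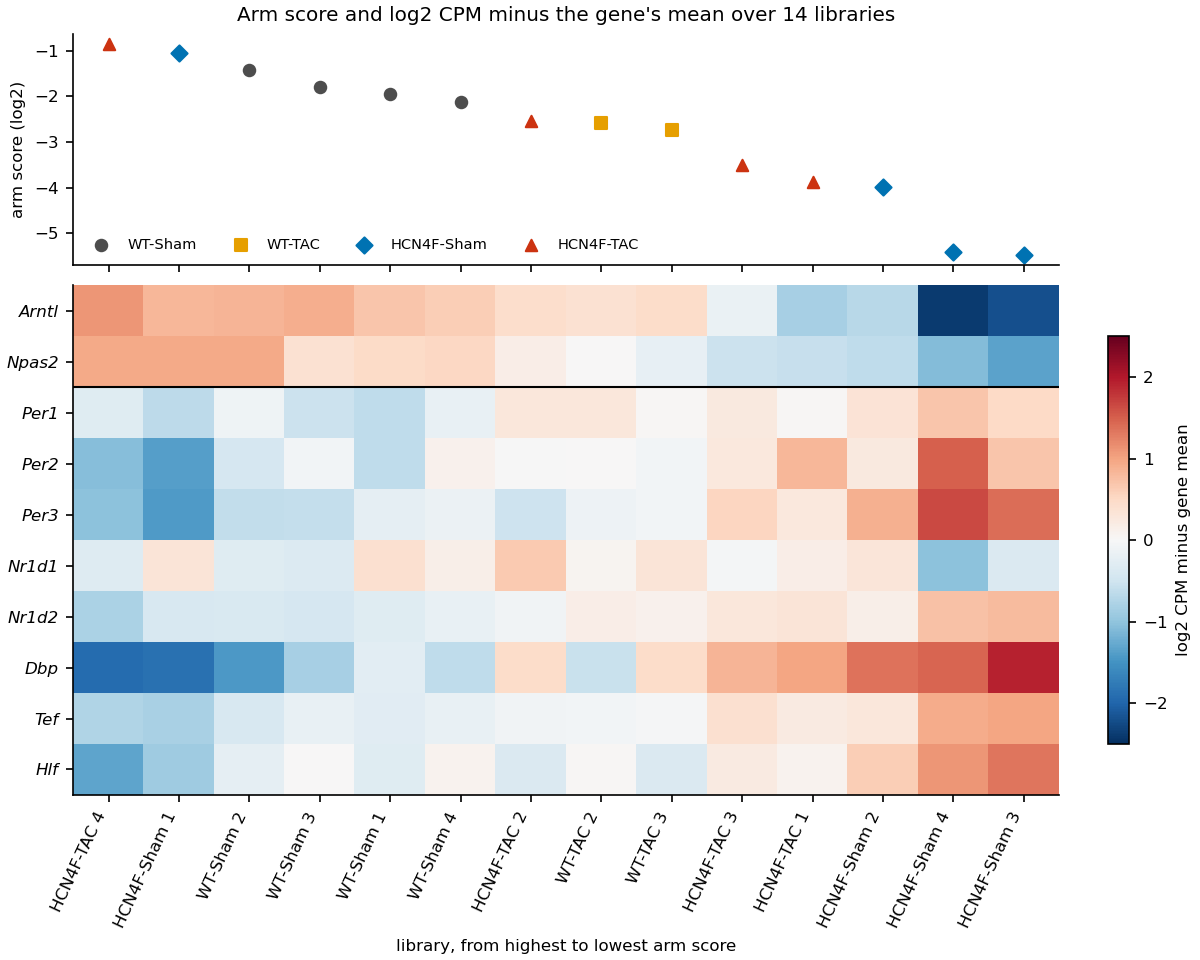
Arm score of each library (upper panel, log2 scale) and log2 CPM of each member minus its mean over the 14 libraries (lower panel, red above and blue below the mean), with libraries ordered from the highest to the lowest score. Arntl and Npas2 turn from red to blue from left to right while Per1, Per2, Per3, Nr1d2, Dbp, Tef and Hlf turn from blue to red, and Nr1d1 does neither.

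Ratios between members that peak one after the other were also taken. The ratio of Nr1d1 to Dbp by CPM was 14.6 in HCN4F-Sham 1 and 9.69 in HCN4F-TAC 4, 4.48 to 6.94 in WT-Sham, and 4.93 and 2.89 in WT-TAC. It was 3.66, 1.78 and 1.69 in HCN4F-TAC 2, 1 and 3, and 1.53, 0.658 and 0.566 in HCN4F-Sham 2, 3 and 4. Its ends were thus held by the libraries at the ends of the score. Nr1d1 and Dbp are both terms of the score, as is Per2, so agreement of their ratios with it is in part built in. The ratio of Nr1d1 to the later Per2 ran from 32.0 in HCN4F-Sham 1 down to 4.73 and 1.70 in HCN4F-Sham 3 and 4. At its upper end the order differed from that of the score, with WT-Sham 1 between HCN4F-Sham 1 and HCN4F-TAC 4 (16.4), which was close to HCN4F-TAC 2 (15.5). In the known order of peaks, high Arntl with low Dbp and Per belongs to another phase than low Arntl with high Dbp, Per and Tef. This order is a cycle, so the arm score does not tell which heart was earlier. The WT-Sham hearts lay close together within this range of scores, while the HCN4F hearts spanned all of it. The numbers in the titles of the WT libraries all lay above those of the HCN4F libraries. What the numbers stand for is not given, and it cannot be told apart from genotype. Whether hearts were collected at different times of day was not tested.

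In HCN4F-Sham most members were among the genes that differed most between hearts of the group. Of 12564 genes whose mean CPM was 1 or more, ranked by the SD of log2 CPM within HCN4F-Sham, Dbp was number 1 (SD 1.74), Arntl number 4 (1.498), Per3 number 7 (1.40) and Per2 number 12 (1.21), where the median gene had an SD of 0.18. Npas2, Hlf and Tef followed at 24, 28 and 51, and Nr1d1, Per1 and Nr1d2 at 164, 221 and 275. In HCN4F-TAC, 3 members stood in the top 100 (Dbp 12, Arntl 77 and Per2 95), while Npas2, Per3 and Hlf were at 142, 146 and 161, Nr1d2 and Tef at 420 and 455, Nr1d1 at 854 and Per1 at 2273. In WT-Sham none stood in the top 100, with Dbp highest at 146 and Arntl at 4856. Without HCN4F-Sham 1, chosen after seeing the data, 1 member of that group stayed in the top 100 (Arntl, 30) and Dbp fell to 1773. The biological coefficient of variation, fitted over all groups, was 67.8% for Dbp and 60.3% for Arntl, and 23.6% for Per1, the lowest of the members, against a median of 11.5% over all tested genes.

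**Figure D3:**
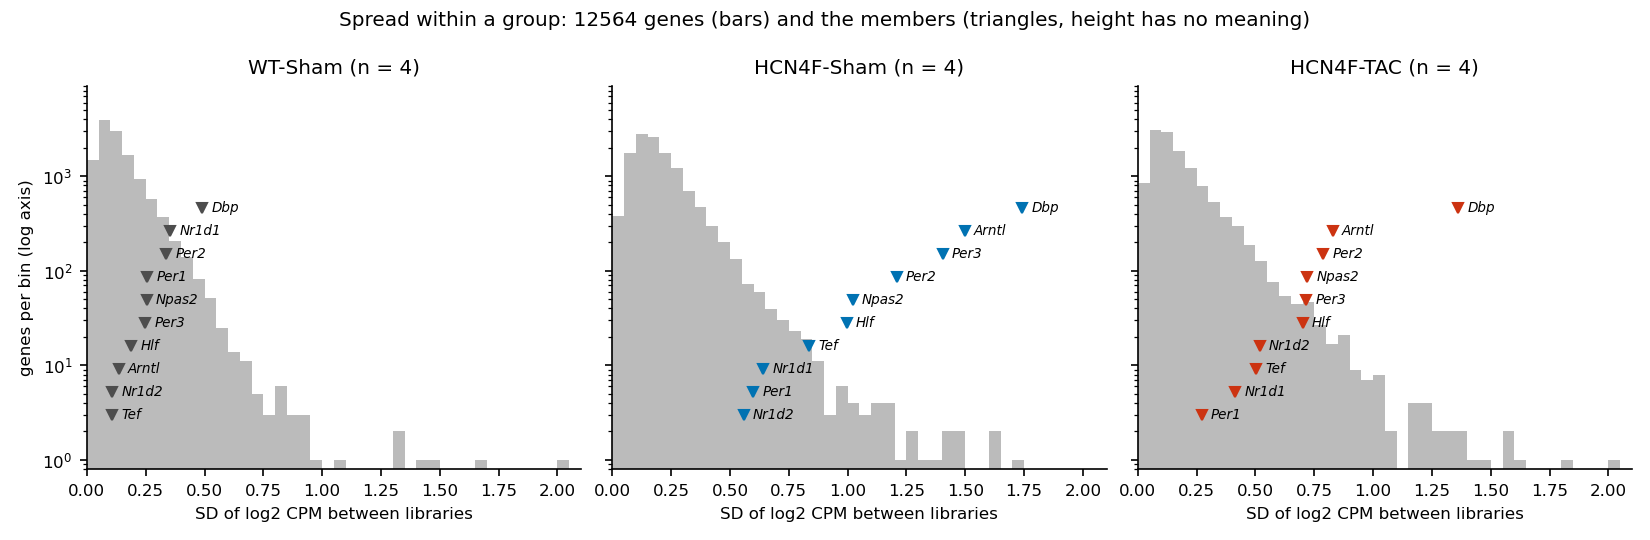
Number of genes per bin of the SD of log2 CPM between the 4 libraries of a group (grey bars, log axis, 12564 genes) with the SD of each member (triangles, whose height has no meaning) in WT-Sham, HCN4F-Sham and HCN4F-TAC. In HCN4F-Sham the triangles reach 1.74 for Dbp, while in WT-Sham all lie at or below 0.49.

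The arms moved against each other from heart to heart. Over 14 libraries, log2 CPM of Arntl was compared with that of each other member, 9 relations in all, by 2-sided permutation tests with 100000 resamples, whose smallest possible p is 1e-05. Arntl rose with Npas2 (Pearson r = 0.92, Spearman rho = 0.91, adjusted p = 1.8e-05 and 5.4e-05). It ran against Tef (r = -0.93, rho = -0.92, adjusted p = 1.8e-05 and 5.4e-05), Per3 (r = -0.92, rho = -0.92, same adjusted p) and Nr1d2 (r = -0.91, rho = -0.97, same adjusted p). The relations to Hlf (r = -0.87, rho = -0.81), Dbp (-0.85, -0.93), Per2 (-0.84, -0.89) and Per1 (-0.78, -0.85) also passed, with adjusted p of at most 0.000799 for r and 0.000664 for rho by the same permutation tests. Nr1d1 was the exception, with r = 0.48 and rho = 0.13 (permutation p = 0.0824 and 0.67). Its r rested on single libraries: it was 0.56 without WT-Sham 3 and 0.58 without HCN4F-TAC 4 (permutation p = 0.0467 and 0.04), but 0.12 without HCN4F-Sham 4 (permutation p = 0.709).

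The 8 relations that passed also passed on r with values centred on their group means, with permutation p adjusted over the 9 relations. Tef was then at r = -0.95, Nr1d2 at -0.94, Per2 at -0.94, Npas2 at 0.93 and Per1 at -0.79 (adjusted p = 0.03, and 0.0989 on rho). The libraries farthest from the Arntl median were HCN4F-Sham 3 and 4. Without them the same 8 passed over 12 libraries, among them Npas2 at r = 0.90, Nr1d2 at -0.84, Per3 at -0.83 and Per1 at -0.64 (permutation, adjusted p = 0.0277 for Per1), while Nr1d1 turned to r = -0.31 (permutation p = 0.336). The points share their library totals and the extremes belong to the HCN4F groups. Of the 16 pairs across the arms, 14 had a negative r (median -0.87) and the other two were those of Nr1d1. Of the 29 pairs within an arm, 7 had a negative r, all of them pairs of Nr1d1, and the median was 0.84, with Per3 and Tef the closest pair at 0.97.

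**Figure D4:**
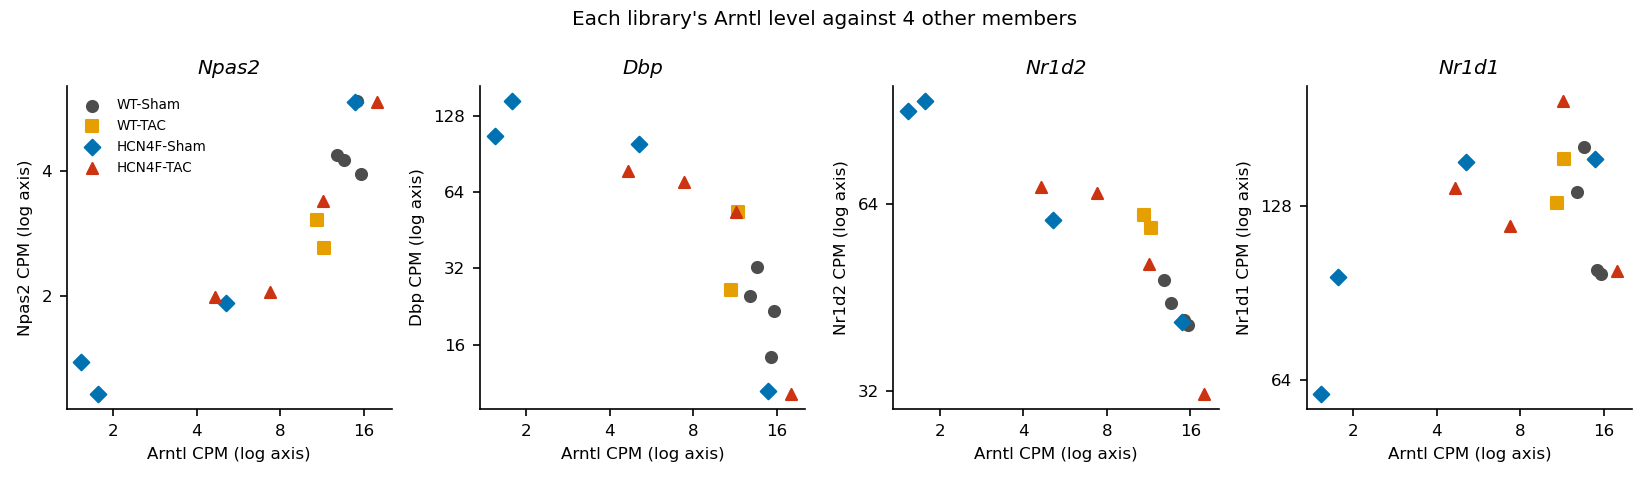
CPM of Npas2, Dbp, Nr1d2 and Nr1d1 against CPM of Arntl in each of the 14 libraries (log axes, symbols by group). Npas2 rises with Arntl (r = 0.92), Dbp and Nr1d2 fall (r = -0.85 and -0.91), and Nr1d1 is highest where Arntl is at 11.4 CPM and lower at both ends.

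Between genotypes in Sham hearts the positive arm was lower and the Per and PAR bZIP genes were higher on average in HCN4F, but HCN4F-Sham 1 did not share the difference and no member passed the test. Dbp was at 90.8 ± 57.4 CPM (SD, n = 4) in HCN4F-Sham and 23.4 ± 7.51 CPM (n = 4) in WT-Sham, a log2 fold change of 1.96 (SE 0.74, adjusted p = 0.252, edgeR). Arntl was at 5.83 ± 6.27 against 14.3 ± 1.33 CPM, a log2 fold change of -1.31 (SE 0.62, adjusted p = 0.346), and Per3 at 17.7 ± 10.7 against 6.75 ± 1.16 CPM, a log2 fold change of 1.39 (SE 0.52, adjusted p = 0.241). The log2 fold changes were -0.85 for Npas2, 0.66 for Per1, 0.82 for Per2, 0.71 for Nr1d2, 0.77 for Tef, 0.86 for Hlf and -0.09 for Nr1d1, with adjusted p of 0.228 to 0.917. A gene was called where adjusted p was under 0.05 and the absolute log2 fold change exceeded 1. None of the 10 members was called, against 0.209% of the tested genes, or 0.471% by adjusted p alone, and 5 had an unadjusted p under 0.05 (Per1, Per3, Nr1d2, Dbp and Tef), as 15.2% of the tested genes had. DESeq2 fitted on all groups called none of the 10 either. The libraries of the groups overlapped for all 10, and 8.56% of all tested genes did not overlap.

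HCN4F-Sham 1 decided this outcome. Without it, 5 of the 10 members were called by the same edgeR test, against 0.603% of 15250 tested genes. Arntl fell by 2.41 on the log2 scale (adjusted p = 0.0272) and Npas2 by 1.65 (adjusted p = 0.0199), while Dbp rose by 2.33 (adjusted p = 0.0491), Per3 by 1.74 (adjusted p = 0.0149) and Tef by 1.03 (adjusted p = 0.0344). Hlf (1.15, adjusted p = 0.0526), Per2 (1.14, 0.130), Nr1d2 (0.90, 0.0505), Per1 (0.87, 0.0118) and Nr1d1 (-0.26, 0.696) were not called. All libraries were kept for the result, and this count shows what rests on 1 heart.

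**Figure D5:**
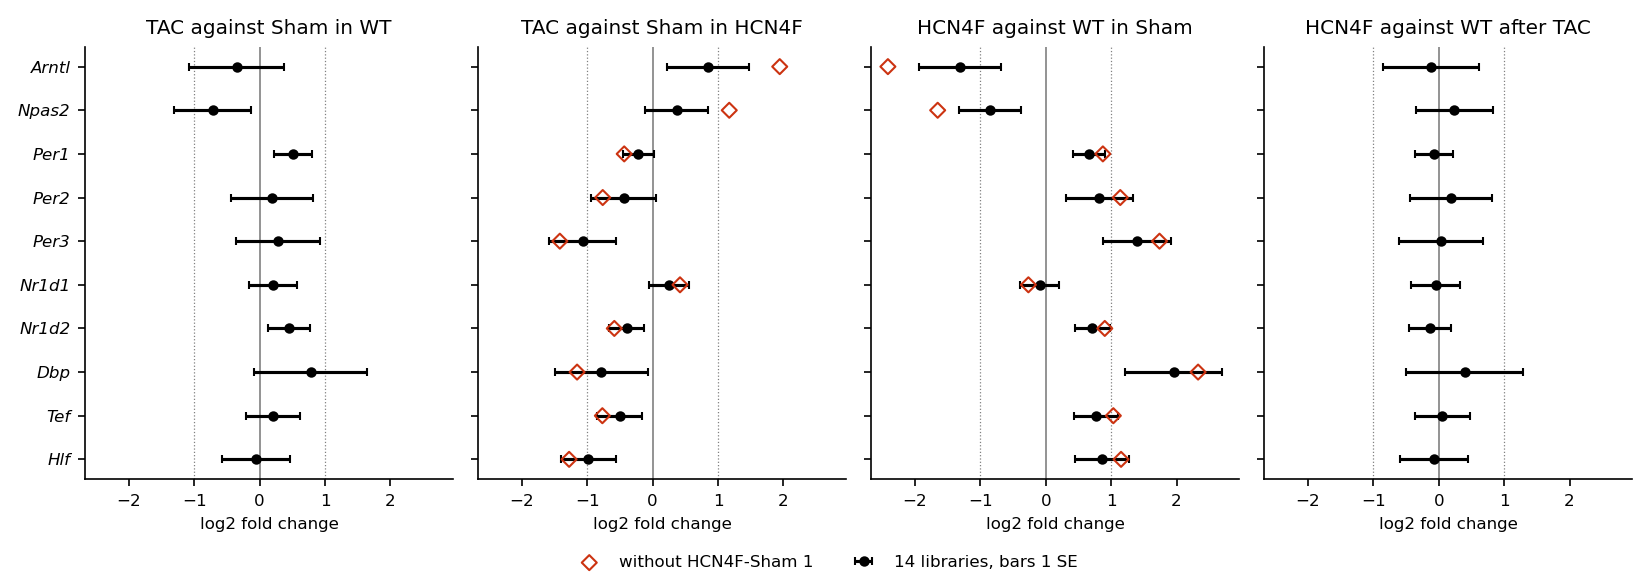
Log2 fold changes of the 10 members in the 4 comparisons (filled circles, bars 1 SE, edgeR fit on 14 libraries) and, where HCN4F-Sham libraries take part, without HCN4F-Sham 1 (open diamonds). Dotted lines mark -1 and 1. Between Sham hearts Arntl moves from -1.31 to -2.41 when that library is left out, and after TAC all circles lie between -0.14 and 0.39.

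After TAC the genotypes were close on average, with wide errors. Dbp averaged 52.7 ± 30.1 CPM (SD, n = 4) with HCN4F-TAC against 39.97 ± 19.3 CPM (n = 2) with WT-TAC, a log2 fold change of 0.39 (SE 0.89, edgeR adjusted p = 0.899), the largest of the 10. The others lay between -0.14 (Nr1d2) and 0.24 (Npas2), with adjusted p of 0.905 to 0.990. No member was called by edgeR or DESeq2 or had an unadjusted p under 0.05, against 0.0719% of tested genes called, 0.111% by adjusted p alone and 12.5% at an unadjusted p under 0.05. The libraries overlapped for all 10, and 22.2% of all tested genes did not overlap. Only 2 WT-TAC libraries took part here, and the SEs of the members ran from 0.29 to 0.89.

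In WT hearts the means after TAC were lower for Arntl and Npas2 and higher for Per1 and Nr1d2, by less than the spread in the common fit allows to call. Npas2 was at 2.82 ± 0.308 CPM (n = 2) in WT-TAC and 4.62 ± 0.881 CPM (n = 4) in WT-Sham, a log2 fold change of -0.72 (SE 0.58, edgeR adjusted p = 0.505). Per1 was at 71.8 ± 8.83 against 50.3 ± 8.87 CPM, a log2 fold change of 0.51 (SE 0.29, adjusted p = 0.327), and Nr1d2 at 59.97 ± 2.03 against 43.7 ± 3.35 CPM, a log2 fold change of 0.45 (SE 0.32, adjusted p = 0.435). The other log2 fold changes were -0.35 for Arntl, 0.19 for Per2, 0.28 for Per3, 0.20 for Nr1d1, 0.78 for Dbp, 0.21 for Tef and -0.05 for Hlf. The value for Dbp rested on WT-TAC 3, being 0.17 without it and 1.20 without WT-TAC 2. No member was called by edgeR or by DESeq2 on all groups, and none had an unadjusted p under 0.05, against 0.706% of tested genes called, 4.54% by adjusted p alone and 22% at an unadjusted p under 0.05. The libraries did not overlap for 6 of the 10 (Arntl and Npas2 lower, Per1, Per3, Nr1d2 and Tef higher after TAC), and 39.2% of all tested genes did not overlap in this comparison. With edgeR fitted on the WT libraries alone, whose spread is that of the tighter WT groups, Nr1d2 (0.47, adjusted p = 0.00536) and Npas2 (-0.70, adjusted p = 0.0326) passed the adjusted p but not the fold threshold.

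In HCN4F hearts the mean of Arntl was higher and those of Per3, Dbp and Hlf were lower after TAC than after Sham surgery, and again no member passed. Hlf averaged 13.99 ± 5.66 CPM (SD, n = 4) with HCN4F-TAC against 27.6 ± 14.2 CPM (n = 4) with HCN4F-Sham, a log2 fold change of -0.98 (SE 0.42, edgeR adjusted p = 0.149). Per3 was at 8.44 ± 3.91 against 17.7 ± 10.7 CPM (-1.07, SE 0.51, adjusted p = 0.198) and Arntl at 10.3 ± 5.76 against 5.83 ± 6.27 CPM (0.84, SE 0.63, adjusted p = 0.413). The remaining log2 fold changes were 0.37 for Npas2, -0.22 for Per1, -0.44 for Per2, 0.25 for Nr1d1, -0.40 for Nr1d2, -0.78 for Dbp and -0.51 for Tef. Leaving out 1 library moved Arntl between 0.45 and 1.94 and Dbp between -1.16 and -0.44, the values farthest from 0 being those without HCN4F-Sham 1 and those nearest to 0 without HCN4F-TAC 4. No member was called by edgeR or by DESeq2 on all groups and 1, Hlf, had an unadjusted p under 0.05, against 2.75% of tested genes called, 13.6% by adjusted p alone and 28.3% at an unadjusted p under 0.05. The libraries overlapped for all 10, and 15.1% of all tested genes did not overlap. Without HCN4F-Sham 1, 4 members were called, against 2.87% of 15250 genes: Arntl (1.94, adjusted p = 0.0266), Npas2 (1.17, adjusted p = 0.0409), Per3 (-1.42, adjusted p = 0.0109) and Hlf (-1.28, adjusted p = 0.0155).

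The comparisons share their groups, so the values without HCN4F-Sham 1 in Sham hearts and in HCN4F hearts are not separate evidence. Whether TAC acted differently in the genotypes was tested by the interaction term in edgeR. It was -1.56 for Dbp (SE 1.12), -1.36 for Per3 (SE 0.81) and 1.19 for Arntl (SE 0.97) on the log2 scale, and adjusted p was 0.567 or more for all 10 members. Without HCN4F-Sham 1 it was 2.29 for Arntl (edgeR adjusted p = 0.302), 1.89 for Npas2 (adjusted p = 0.256), -1.94 for Dbp and -1.70 for Per3, and the lowest adjusted p of the 10 was 0.232. No gene at all passed the interaction in edgeR (0% of those tested, smallest adjusted p 0.168, with 1418 genes at an unadjusted p under 0.05), and DESeq2 passed 34 genes, none of them a member. The median log2 fold change of the members was 0.21 for TAC in WT, -0.42 for TAC in HCN4F, 0.74 between Sham hearts and -0.01 between TAC hearts, against -0.02, -0.01, 0.00 and 0.00 over all tested genes. Without HCN4F-Sham 1 it was 0.97 between Sham hearts and -0.67 for TAC in HCN4F.

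Of 20 other listed genes of the clock, 19 were tested (Fbxl21 was not). By Pearson r of log2 CPM with the arm score over the 14 libraries, given as a description since the libraries and their totals are shared, Clock (0.85) and Nfil3, a D-box repressor (0.82), ran with Arntl. Cry2, a partner of the PER proteins (-0.94), Usp2, a deubiquitinase (-0.89), Ciart, a repressor of the ARNTL pair (-0.83), and Bhlhe41, an E-box repressor (-0.66), ran with Per and Dbp. Cry1 (-0.22), Gsk3b (-0.15) and Timeless (-0.27) had weaker r. In all, 5 of the 19 had an r above 0.8 or below -0.8, against 0.884% of 12554 genes at a mean CPM of 1 or more, but the list was drawn up with results of these data known. Without HCN4F-Sham 1 it was 6 of the 19 against 0.972%.

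Single clock genes outside the 10 did pass the test in edgeR. Of the 19 tested, 2 passed the adjusted p with TAC in HCN4F and 1 with TAC in WT. Over all tested genes 13.6% and 4.54% passed it in these comparisons, and 2.75% and 0.706% were called. Bhlhe40, an E-box repressor that stress can induce, rose with TAC in HCN4F hearts, from 29.3 to 49.6 CPM in Sham to 51.9 to 112 CPM (log2 fold change 1.02, SE 0.28, adjusted p = 0.0352), and was the only gene of this list called in the 4 comparisons. Csnk1d, a kinase of the PER proteins, passed the adjusted p there (0.21, adjusted p = 0.0368) and Gsk3b in WT hearts (0.44, adjusted p = 0.0134), both without reaching the fold threshold.

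Among 24 genes known to follow the clock or body temperature, all tested, 1 was called, with TAC in HCN4F, against 2.75% of all tested genes. Ucp3, a mitochondrial uncoupling protein, was at 14.2 to 26.7 CPM in HCN4F-TAC and 44.9 to 101 CPM in HCN4F-Sham (log2 fold change -1.71, SE 0.41, edgeR adjusted p = 0.0185). In the same comparison Hspb1 (0.72), Dgat2 (-0.45) and Kcnip2 (-0.39) passed the adjusted p alone, a threshold that 13.6% of all tested genes passed there. No gene of the list passed in the other comparisons. Of 14 glucocorticoid-responsive genes, of which Tat was not tested, only Sult1a1 passed (-0.68, edgeR adjusted p = 0.0120, TAC in HCN4F), again against 13.6% of all tested genes. Of 12 immediate early genes, 6 were called higher with TAC in WT, 5 with TAC in HCN4F, 5 in HCN4F-Sham against WT-Sham and 0 after TAC. Over all tested genes 0.706%, 2.75%, 0.209% and 0.0719% were called in these comparisons. Egr1 had a log2 fold change of 3.63 with TAC in WT and 3.65 between Sham hearts. Its r with the arm score was -0.42, and those of the immediate early genes ran from -0.63 (Dusp1) to 0.40 (Atf3).

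By r with the arm score, the genes most like the positive arm among 12554 others at a mean CPM of 1 or more were Leo1 (0.95, and 0.94 on values centred by group), Ypel2 (0.94), Fam124b (0.93), Unc119b (0.91) and Sstr3 (0.90). Leo1, a subunit of the PAF1 transcription complex, was at 19.6 to 23.5 CPM in WT-Sham and at 8.63 CPM in HCN4F-Sham 4. Those most like the Per and PAR bZIP arm were Cry2 (-0.94), Tspan4 (-0.94), Cd200 (-0.90), Stk35 (-0.90) and Pde2a (-0.90, and -0.96 centred). Cry2 was at 26.7 to 28.9 CPM in WT-Sham, 23.8 CPM in HCN4F-Sham 1, and 56.6 and 58.5 CPM in HCN4F-Sham 3 and 4. An r above 0.8 was found for 56 of the 12554 genes and an r below -0.8 for 55.

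Of 10 lists of cell type markers, the summed CPM of 5 endothelial markers moved most with the arm score (r = -0.70 over 14 libraries and -0.65 without HCN4F-Sham 1), from 989 CPM in HCN4F-Sham 1 to 1697 CPM in HCN4F-Sham 2 and 1523 CPM in HCN4F-Sham 4, with 1012 to 1315 CPM in WT-Sham. HCN4F-Sham 3, the library with the lowest arm score, was at 1302 CPM, inside the WT-Sham range. The other lists had r between -0.40 and 0.22. HCN4F-Sham 1 stood apart from HCN4F-Sham 2, 3 and 4 in further lists, with 64.8 CPM of summed erythroid markers against 162 to 178 CPM and 615 CPM of smooth muscle and pericyte markers against 863 to 964 CPM. Mitochondrial genes took 17.1% of its counts against 20.2% to 21.4%. Its summed ventricular cardiomyocyte markers were at 69817 CPM against 65121 to 67785 CPM. The part of these differences in the levels of the clock genes was not tested.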

How the data were processed

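RNA from left ventricle was sequenced on an Illumina platform after polyA selection. The authors deposited raw counts of reads per gene, without normalization; the build GRCm38 is named in the submitters' processing notes, while aligner, counting program and use of strand are not given in the sources used here. A further 2 sample columns of the count table could not be tied to any label and were left out. The 174 rows without a gene name were not named in any result.

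Libraries (14) were grouped by their labels. Replicates differed by more than sampling noise; the labels do not say that replicates are separate animals, though the study's methods call them biological replicates. Counts were TMM-scaled and filtered (filterByExpr) in edgeR 4.0.16 (R 4.3.3), all 4 groups were fitted in 1 model, and comparisons used edgeR's quasi-likelihood test (robust) with Benjamini-Hochberg adjustment over all 15292 genes. A gene was called at an adjusted p under 0.05 with an absolute log2 fold change over 1, the study's thresholds; the interaction used adjusted p alone. SEs are the log2 fold change over the root of the F statistic. Log2 CPM used a prior count of 2. The edgeR comparisons were tested on simulated data.

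The members and lists were chosen with earlier results of these data known. All members are named; from the other lists, genes with an adjusted p under 0.05, at most the 3 largest log2 fold changes per list and comparison; others (Kcnip2, Dusp1, and clock genes given by their r) were named after their values were seen. The 5 genes with the highest and the 5 with the lowest r with the arm score are named. Cell type markers were checked as summed CPM. Promoters came from RefSeq, gene positions and exon lengths from GENCODE M21. Alternatives were DESeq2 1.42.0, fits on the compared groups, other scaling and filters, non-robust estimation, a replicate block and leaving out each replicate. Permutations were drawn with numpy 2.4.6. Spearman rho and the Benjamini-Hochberg adjustment of the permutation p used scipy 1.17.1, figures matplotlib 3.10.9. The values of 1 gene of these lists are not reported here.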

Additional observations from a re-analysis of the deposited data

Results flagged for a closer look

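Of 30 groups of 4 libraries examined (10 members in 3 groups), 1 held a library far from the others by Dixon's test at its 95% level. Npas2 was at 5.87 CPM in HCN4F-Sham 1, a gap that makes up 0.839 of the range of that group, in which the other libraries were at 1.16 to 1.92 CPM. Chance flags about 1 in 20 such groups. The same library was the highest of its group for Arntl (14.9 CPM) and the lowest for Dbp (10.5 CPM), which did not pass this test.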

How the results depend on the processing

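The count of called members stayed at 0 in all comparisons under every alternative except without HCN4F-Sham replicate 1. With each replicate left out in turn it ran from 0 to 5 between Sham hearts and from 0 to 4 for TAC in HCN4F. Of the fold changes of members under alternatives, 808 kept direction and side of the threshold, 9 passed it (all without HCN4F-Sham 1) and 33 turned direction, none of them called. Between genotypes after TAC, leaving out 1 replicate moved the log2 fold change from -0.51 to 0.12 for Arntl, -0.023 to 1.00 for Dbp, -0.26 to 0.16 for Hlf, -0.17 to 0.41 for Npas2, -0.28 to 0.083 for Nr1d1, -0.26 to 0.051 for Nr1d2, -0.19 to 0.055 for Per1, -0.12 to 0.44 for Per2, -0.24 to 0.25 for Per3 and -0.10 to 0.24 for Tef. It ran from -0.25 to 0.14 for Hlf (TAC in WT), -0.041 to 1.17 for Npas2 and -0.76 to 0.070 for Per2 (TAC in HCN4F), and for Nr1d1 from -0.26 to 0.12 between Sham hearts and from -0.19 to 0.22 for the interaction. With library totals alone Nr1d1 was at 0.011 between TAC hearts. The relation of Arntl to Nr1d1 turned to -0.31 without the libraries farthest from the Arntl median, and ran from 0.12 to 0.58 with 1 library left out. The causes were not tested.

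Same-numbered libraries deviated together only weakly (r from -0.12 to 0.16 over 18 pairs, 2 above 0.1), so the numbers were not taken as pairs. With the replicate number as a block, 0 members were called, and between TAC hearts Hlf turned to 0.076, Npas2 to -0.033 and Per1 to 0.070.

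Over all genes, edgeR fitted on the compared groups called 192 genes for TAC in WT against 108 in the fit on all groups, and 3 against 11 between TAC hearts. DESeq2 on all groups called 74 against 32 between Sham hearts, 87 against 11 between TAC hearts and 34 against 0 for the interaction; on the compared groups it called 83 and 70 between Sham and TAC hearts. Without the filter on low counts edgeR called 53 between Sham hearts, 48 between TAC hearts and 17 for the interaction. A mean CPM of at least 1 gave 260 against 420 for TAC in HCN4F, non-robust estimation 17 between TAC hearts and 1 for the interaction, and the replicate block 68 for TAC in WT, 21 between Sham hearts and 7 between TAC hearts. With 1 replicate left out edgeR called 7 (without WT-TAC 3) to 91 genes for TAC in WT, 273 (without HCN4F-TAC 2) to 550 for TAC in HCN4F, 11 (without WT-Sham 2) to 92 (without HCN4F-Sham 1) between Sham hearts, 6 (without WT-TAC 2) to 158 (without HCN4F-TAC 3) between TAC hearts and 0 to 78 (without HCN4F-TAC 3) for the interaction. For TAC in WT, DESeq2 on the compared groups put Nr1d2 (0.47, adjusted p = 0.000107), Per1 (0.53, adjusted p = 0.00292) and Npas2 (-0.70, adjusted p = 0.0199) below the adjusted p threshold, and likewise Nr1d2 between Sham hearts (0.71, adjusted p = 0.0250). The small number of WT-TAC libraries, 2, limits both comparisons that use them.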

Other observations

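Of 24 listed genes known to follow the clock or body temperature, 5 had a Pearson r of log2 CPM with the arm score above 0.8 or below -0.8 over 14 libraries, against 0.884% of 12554 genes (a description, with shared library totals and a list drawn up with results of these data known). Without HCN4F-Sham 1 it was 4 of 24 against 0.972%. The genes given here were picked after their r was seen. Cdkn1a, a brake on the cell cycle (0.89), and Tfrc, the transferrin receptor (0.65), ran with Arntl. Pfkfb3, a regulator of glycolysis (-0.83), Coq10b (-0.81), Wee1, a cell cycle kinase (-0.75), and Tcap, a Z-disc protein (-0.73), ran with Dbp and Per. Cirbp and Rbm3, which respond to cold, had r of 0.10 and 0.03. The heat shock genes Hspa1b, Hspb1 and Hspa1a of the same list had r of 0.59, 0.59 and 0.48. Without HCN4F-Sham 1 these were 0.74, 0.70 and 0.64, and on values centred by group 0.27, 0.37 and 0.10.

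With the arm score of each library added to the fit of all genes, an alternative chosen after seeing the data, the number of called genes other than the members went from 32 to 31 between Sham hearts, with 14 in common, and from 420 to 356 for TAC in HCN4F, with 319 in common. It went from 108 to 111 for TAC in WT (89 in common) and from 11 to 9 between TAC hearts (9 in common). Of the 12 immediate early genes, Egr1 (3.65 and 3.52), Junb and Ier2 were called between Sham hearts in both fits, Fos and Egr3 without the score alone and Egr2 with the score alone. In that fit 71 of the tested genes (0.465%) moved with the score at an adjusted p under 0.05.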
